A study of Drosophila melanogaster with 6 samples.

Results

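The positions of 10 regulator genes of *Drosophila melanogaster*, which form 5 duplicated pairs, were followed through lists of TADs. A TAD (topologically associating domain) is a block of chromosome in which contacts are more frequent than with DNA outside it. The pairs, taken from a given list by their symbols, are *salm* and *salr*, *B-H1* and *B-H2*, *bab1* and *bab2*, *tsh* and *tio*, and *en* and *inv*. These 10 genes were all found in the RefSeq table of Release 6, among 17684 genes on the arms 2L, 2R, 3L, 3R, 4 and X, of which 13922 are protein-coding. The lists come from Hi-C, an assay in which neighbouring DNA fragments of fixed nuclei are ligated and read as pairs, on eye discs and antennal discs of third-instar larvae. These discs develop joined to each other, were parted by dissection, and form the adult eye and antenna. Larvae of both groups had the genotype yw;+;+, with no treatment named, and each library was made from a pool of 125 discs. Lists of eye disc libraries 1, 2 and 3 and of antennal disc libraries 2 and 3 were compared, beside the authors' list from the pooled replicates of each tissue; antennal disc library 1 was not analysed here. A whole disc holds many cell types, so a domain here is an average over them. Expression was not measured, so the tissue labels could not be checked against marker genes.

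Genes copied side by side often keep overlapping expression and can be served by shared enhancers. An enhancer reaches a promoter inside the same TAD more readily than across a border, the point where a TAD ends and the next begins, so whether a border parts a gene pair is a question about their common regulatory space. *salm* and *salr* encode the zinc finger factors of the spalt locus, which act in photoreceptors and in the hearing organ of the antenna. *B-H1* and *B-H2* encode BarH homeodomain factors, needed in photoreceptors and for distal leg and antennal segments. *bab1* and *bab2* encode BTB-domain factors that pattern the distal segments of leg and antenna. *tsh* and *tio* encode zinc finger factors of the teashirt family, which specify the trunk and also act in growth of the eye disc. *en* and *inv* encode homeodomain factors that mark posterior compartments.

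Eye disc library 1 and antennal disc library 3 stand apart from the other libraries: they held no TAD on chromosome 4, where the others held 9 to 11. None of the 10 genes lies on that chromosome, but values that rest on these libraries are given with and without them or library by library: the right flank of *en* and *inv*, the border close to *tio* and the left end of the *tsh* domain. Sequencing depth is unknown for every library, and its part in these values was not tested.

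In all, 4 of the 5 pairs lay in a single TAD in each of the 5 libraries and in both pooled lists, and *tsh* and *tio* lay in different TADs in all of them. A pair was counted as sharing a TAD when the midpoints of both genes fell into the same TAD. The count was therefore 4 of 5 pairs in eye disc libraries 1, 2 and 3 and in antennal disc libraries 2 and 3, and the discs did not differ in it (two-sided exact permutation p = 1; 3 against 2 libraries allow no p below 0.2). No library of either disc departed from this pattern.

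The pairs differed in how far apart their genes lie. *inv* and *en* on 2R (11474465 to 11528210, dm6) spanned 53.7 kb from outer end to outer end with a gap of 14.3 kb between them. *salr* and *salm* on 2L (11358873 to 11445614) spanned 86.7 kb with a gap of 60.7 kb, and *B-H2* and *B-H1* on X (17314581 to 17403278) spanned 88.7 kb with a gap of 73.3 kb. *bab1* and *bab2* on 3L (1036369 to 1177276) spanned 140.9 kb, most of it gene body, since *bab1* is 64.7 kb and *bab2* 36.8 kb long and the gap is 39.3 kb. None of these 4 gaps held the midpoint of another protein-coding gene. *tsh* and *tio* on 2L (21828593 to 22025734) spanned 197.1 kb with a gap of 182.2 kb, and 7 protein-coding genes lay between them: *CG11629*, *CG1421*, *CG1428*, *CG31600*, *CG11634*, *CG2528* and *CG31693*. The parted pair was thus the one with the widest gap and the only one with other protein-coding genes in it.

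**Figure D1:**
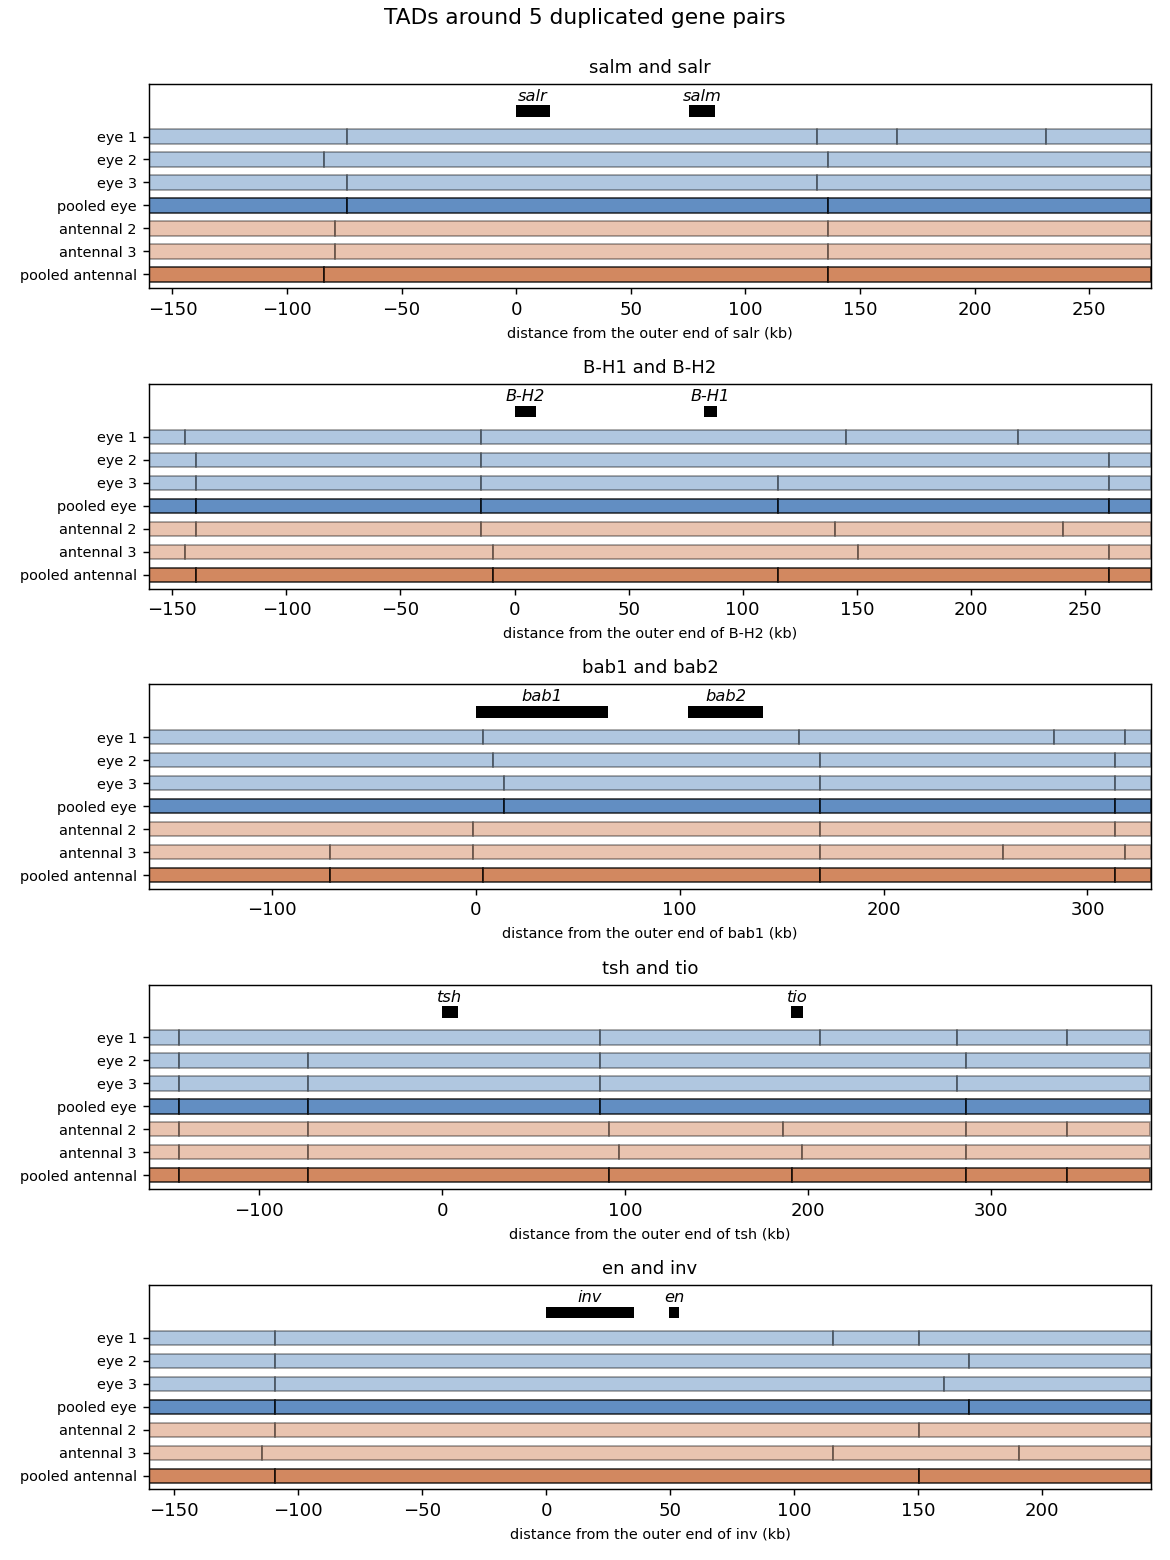
TADs in each library and in the pooled lists around the 5 pairs; the horizontal axis is the distance in kb from the outer end of the left gene, each bar between 2 vertical lines is a TAD (eye disc blue, antennal disc orange, pooled lists darker), and the black blocks are the genes. A border lies between *tsh* and *tio* in every list, 86.4 to 96.4 kb from the outer end of *tsh*, and none lies between the genes of another pair.

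Sharing a TAD is common for neighbours and rare at long range. Each pair was therefore set beside all protein-coding gene pairs whose span was within 10% of its own. Such pairs can have any number of genes between them, whereas the duplicated pairs that shared a TAD had no other protein-coding gene between them. Neighbouring genes of like span were not compared, so this is not a like background. Only pairs with both midpoints inside TADs in all 5 libraries were counted. At the span of *en* and *inv*, 31.0% of 19616 gene pairs shared a TAD in all 5 libraries. The share was 13.0% of 29478 pairs at the span of *salm* and *salr* and 12.6% of 30164 at that of *B-H1* and *B-H2*. It was 3.12% of 46135 at that of *bab1* and *bab2*, where single libraries put between 8.56% and 15.5% of such pairs in a single TAD. Sharing was scored on midpoints, which lie closer together than the outer ends: 90.1 kb for *bab1* and *bab2* and 34.0 kb for *en* and *inv*. Single libraries put 25.5% to 31.4% of all pairs spanning 80 to 100 kb in a single TAD, and 69.3% to 74.8% at 20 to 40 kb. Pairs matched by midpoint distance were not compared, so for these pairs the shares by outer span may be too low a reference. At the span of *tsh* and *tio* 1.05% of 63187 gene pairs shared a TAD in all 5 libraries and 89.6% in none, so the parting of this pair is what most gene pairs of that span show. These gene pairs overlap each other and are a description of the genome, not a test. Among neighbouring protein-coding genes, which mostly lie much closer together, 83.0% of 13643 pairs shared a TAD in all 5 libraries and 1.72% in none. A switch between the discs was rare among them: 0.704% shared a TAD in every eye and no antennal library and 0.330% the reverse. Of the 5 duplicated pairs, 0 switched in either direction, which says little beside shares this low. These shares are of neighbours and not of pairs of like span.

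**Figure D2:**
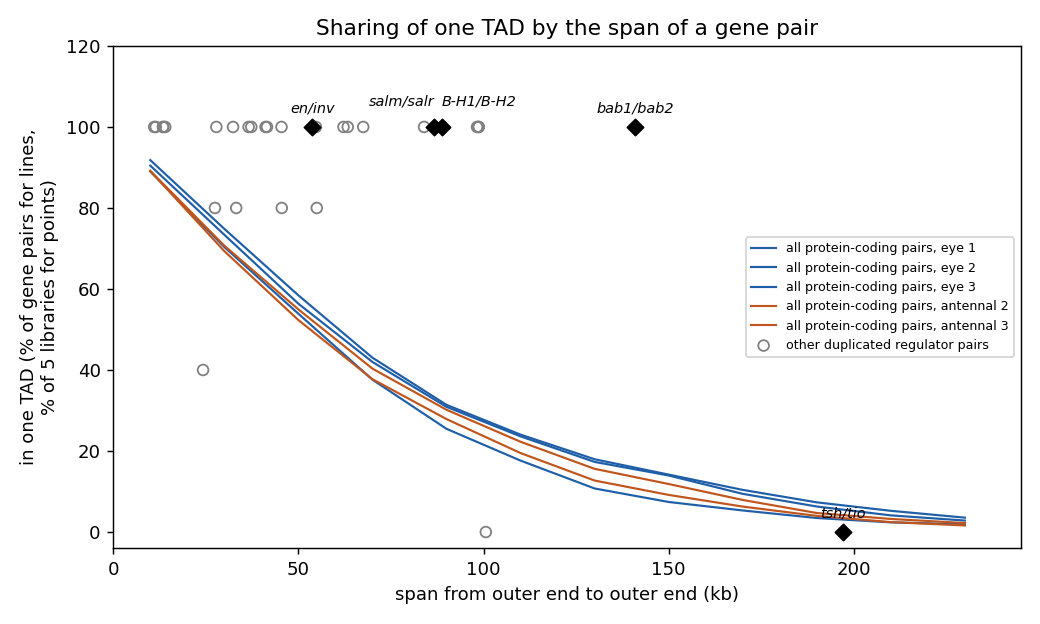
Share of gene pairs in a single TAD (vertical axis, %) against the span of the pair in kb (horizontal axis). Sharing is scored on gene midpoints, which lie closer together than the outer ends, and the lines include pairs with any number of genes between them. Lines are all protein-coding pairs in 20 kb classes of span in each library (eye disc blue, antennal disc orange), black diamonds the 5 pairs and grey circles the other duplicated regulator pairs, both as the percentage of the 5 libraries; 4 diamonds lie at 100% and *tsh*/*tio* at 0%.

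The homeobox pair *en* and *inv* lay in a wider TAD than the other pairs that share one in every library. Their TAD was 225, 280 and 270 kb wide in eye disc libraries 1, 2 and 3 and 260 and 230 kb in antennal disc libraries 2 and 3, against a median TAD of 90 to 100 kb per library. At most 3.62% of a library's TADs were wider. Its left border, next to the gustatory receptor gene *Gr47b* in both pooled lists, lay 109 kb from *inv* in 4 libraries and 114 kb in antennal disc library 3. Its right border moved over 55 kb: it lay 61.8, 116.8 and 106.8 kb beyond *en* in eye disc libraries 1, 2 and 3 and 96.8 and 61.8 kb in antennal disc libraries 2 and 3. The short distance occurred once in each disc, in eye disc library 1 and antennal disc library 3, so the discs overlap. This overlap rests on the libraries that stand apart. Without them the distances were 116.8 and 106.8 kb in the eye disc against 96.8 kb in antennal disc library 2, the only antennal library left. In the pooled lists this border fell inside *CG9003* for the eye disc and inside *atos* for the antennal disc. The TAD held 17 to 20 protein-coding genes. A closer reference for its width is the TAD that holds a protein-coding gene, with a median of 110 to 135 kb per library. A TAD that holds both gene midpoints of a pair is also at least as wide as the distance between them.

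The spalt pair *salm* and *salr* lay in a wide domain whose ends hardly moved between libraries. It was 205, 220 and 205 kb wide in eye disc libraries 1, 2 and 3 and 215 kb in both antennal disc libraries, and at most 10.1% of TADs of a library were wider. The left border lay at 11285000, 11275000 and 11285000 in the eye disc and at 11280000 in both antennal libraries, between 73.9 and 83.9 kb from *salr*. The right border lay at 11490000, 11495000 and 11490000 in the eye disc and at 11495000 in both antennal libraries, 44.4 to 49.4 kb beyond *salm*. All positions of a border thus fell within 10 kb, which is 2 bins of the lists, and those of the discs overlap. The pooled lists put the left end inside *Osi21* (eye disc) or *cana*, a kinesin gene (antennal disc), and the right end 1.80 kb from *Cog8*, which encodes a subunit of a Golgi tethering complex. The TAD held 6 to 9 protein-coding genes. Its width also exceeded the median of 110 to 135 kb per library for the TAD that holds a protein-coding gene.

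The BarH pair sat against a steady left border, with a right border that varied from library to library. The left border lay at 17300000 in 4 libraries and at 17305000 in antennal disc library 3, 14.6 or 9.58 kb from *B-H2*. In the pooled lists it fell inside *Fim*, which encodes the actin-bundling protein fimbrin, for the eye disc and inside *CG5445* for the antennal disc. The right border lay 56.7, 171.7 and 26.7 kb beyond *B-H1* in eye disc libraries 1, 2 and 3 and 51.7 and 61.7 kb beyond it in antennal disc libraries 2 and 3. The TAD was accordingly 160, 275 and 130 kb wide in the eye disc and 155 and 160 kb in the antennal disc, and the antennal values lie inside the eye disc range. Both pooled lists put this border at 17430000, inside *CG12994*, a position that only eye disc library 3 gave among the single libraries.

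The *bab1* and *bab2* domain was 155, 160 and 155 kb wide in eye disc libraries 1, 2 and 3 and 170 kb in both antennal disc libraries, so the discs do not overlap. How often widths are apart between the discs over all TADs was not counted, so this has no background beside it. The difference in width came to 13.3 kb (exact permutation p = 0.2, the smallest that 3 against 2 libraries allow). It arose mainly at the left border, which lay inside *bab1* in each eye disc library, 3.63, 8.63 and 13.6 kb from the gene's outer end, and 1.37 kb outside *bab1* in both antennal libraries. The mean position was 10 kb farther left in the antennal disc (exact permutation p = 0.2), and eye disc library 1 and the antennal libraries were only a single bin of 5 kb apart. The authors' pooled antennal list has this border inside *bab1* as well, 3.63 kb from its outer end, against 13.6 kb in the pooled eye list. Whether the whole of *bab1* and *bab2* lies in a single TAD therefore rests on a shift of 1 to 3 bins: counted over whole genes, 3 of 5 pairs shared a TAD in each eye disc library and 4 of 5 in each antennal library. *bab1* was the member, 1 of 10, with a border inside in every eye and no antennal library, against 0.201% of protein-coding genes of any length. It is also long, and 70.3% of the 195 protein-coding genes of at least its length held a border in at least 1 library. The share of those long genes with the pattern of *bab1* is not given, so the 0.201% is not matched for length. The right border was at 1195000 in eye disc library 1 and at 1205000, inside *mwh*, a planar polarity gene, in the other 4 libraries.

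**Figure D3:**
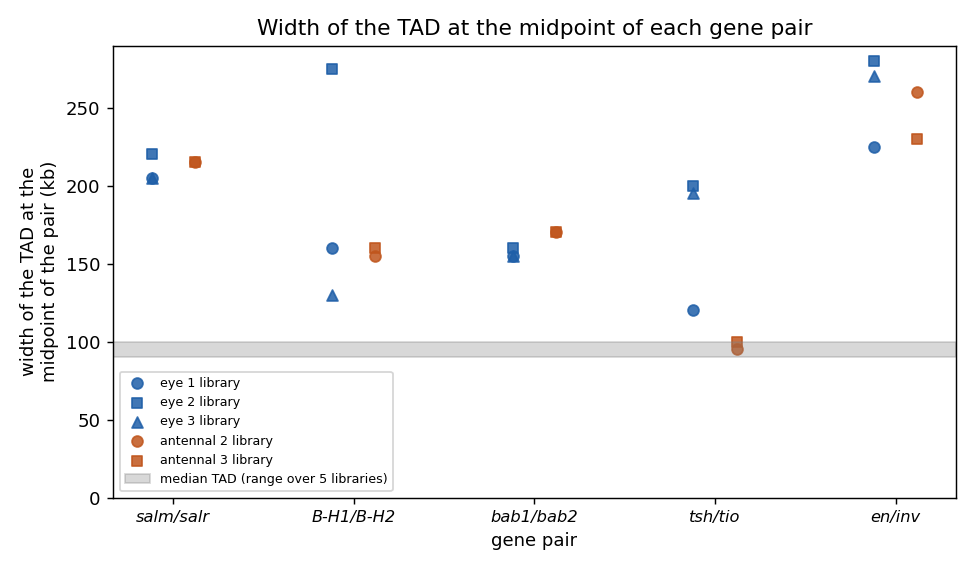
Width in kb of the TAD at the midpoint of each pair (vertical axis) for the 5 pairs (horizontal axis); each point is a library (eye disc blue, antennal disc orange), and the grey band is the range of the median TAD width over the libraries, 90 to 100 kb. The TAD that holds a protein-coding gene had a median width of 110 to 135 kb per library, which is not drawn. For *bab1*/*bab2* and *tsh*/*tio* the points of the discs do not overlap. The share of all TADs or gene pairs with widths apart in this way was not counted.

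The border between *tsh* and *tio* was held by every library. It lay at 21915000 in all 3 eye disc libraries and at 21920000 and 21925000 in antennal disc libraries 2 and 3, 78.0 kb beyond *tsh* in the eye disc and 83.0 and 88.0 kb beyond it in the antennal disc. The positions do not overlap, with the antennal border 7.5 kb farther from *tsh* on average (exact permutation p = 0.2, the smallest possible), which is 1 to 2 bins. The pooled lists gave 21915000, inside *CG31600*, for the eye disc and 21920000, inside *CG11634*, for the antennal disc. Of the border sites around the 5 pairs that had a border in each of the 5 libraries, the positions of eye and antennal discs were apart at 2 of 8, those at *bab1* and between *tsh* and *tio*, against 6.14% of 456 such sites in the genome.

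A second border came close to *tio* in the antennal disc. It lay at 22015000 in antennal disc library 2, which is 4.21 kb before *tio*, and at 22025000 in antennal disc library 3, inside *tio*; the pooled antennal list has it at 22020000, also inside *tio*. Eye disc library 1 had a border at 22035000, 9.27 kb beyond *tio*, whereas eye disc libraries 2 and 3 and the pooled eye list had none until 22110000 or 22115000. The mean distance of the ends of *tio* to the nearest border was 12.5, 92.5 and 87.5 kb in eye disc libraries 1, 2 and 3 and 7.47 and 3.26 kb in antennal disc libraries 2 and 3. The antennal values are the lower ones and do not overlap with those of the eye disc, but eye disc library 1 resembles them more than it does the other eye libraries. The means were 64.2 ± 44.8 kb (SD, n = 3) and 5.37 ± 2.98 kb (SD, n = 2), with exact permutation p = 0.2, and the difference, antennal minus eye, was −58.8 kb with all libraries and −84.7 kb without eye disc library 1. *tio* was the only member, 1 of 10, nearer to a border in every antennal than in any eye library, against 7.59% of protein-coding genes, so this count is close to the background. With this border, *tio* lay in the TAD after that of *tsh* in the eye disc libraries and antennal disc library 3, and in the next but one in antennal disc library 2 and the pooled antennal list.

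The domain that *tsh* occupied changed less. It was 230, 160 and 160 kb wide in eye disc libraries 1, 2 and 3 and 165 and 170 kb in antennal disc libraries 2 and 3, with its left border at 21755000 except in eye disc library 1, where it reached to 21685000. The TAD of *tio* was 120, 200 and 195 kb wide in the eye disc libraries and 100 kb in each antennal library, with 4, 14 and 14 protein-coding genes in the former and 12 and 3 in the latter. The 2 antennal TADs of *tio* lie mostly on opposite sides of the border near it, so their equal width does not mean that the same TAD was called. The stretch between the genes has its midpoint in a TAD that measured 95 and 100 kb in the antennal libraries. In the eye libraries that TAD measured 120, 200 and 195 kb, without overlap (a difference of −74.2 kb, exact permutation p = 0.2). It was the TAD of *tio* itself in every library except antennal disc library 2, so this is not a further difference beside the border near *tio*. The share of all TADs whose widths are apart between the discs was not counted.

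Borders inside the pairs' spans added up to the same number in both discs through different places. Each of the 5 libraries had 2. In the eye disc these were the border in *bab1* and the border between *tsh* and *tio*, and in the antennal disc both lay between the outer ends of *tsh* and *tio*. The pooled antennal list had all of these kinds, 3 borders, and the pooled eye list had 2.

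Most of the 10 genes lay far from borders. The median over the members was 54.8, 83.5 and 62.9 kb in eye disc libraries 1, 2 and 3 and 54.8 and 59.5 kb in antennal disc libraries 2 and 3, where the median protein-coding gene lay 20.8 to 25.6 kb from a border. The discs differed by −9.94 kb, antennal minus eye (exact permutation p = 0.6), less than the SD within discs of 12.2 kb. In each library 8 or 9 of the 10 members were farther than the median protein-coding gene. A pair that spans a long stretch without a border has to lie in a wide domain, so this distance and the sharing of a TAD are not separate facts.

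Within pairs the genes differed in depth. *inv* lay 94.9 to 122.4 kb from a border, farther than *en* (63.9 to 118.9 kb) in every library, and 1.55% of protein-coding genes lay farther from borders than *inv* in the mean over libraries. *salr* (81.3 to 91.3 kb) lay deeper than *salm* (50.0 to 55.0 kb) in every library. *B-H2* lay 14.4 to 19.4 kb from a border, nearer than the median protein-coding gene, whereas *B-H1* lay 29.6 to 100.4 kb from a border. *bab2* lay 36.1 to 46.1 kb away. *bab1* lay at 32.4 kb in each eye disc library and at 33.7 kb in both antennal libraries; this measure cannot vary while the nearest border lies inside the gene, and 5.11% of protein-coding genes were likewise farther in every antennal library. *tsh* lay 75.8 to 82.2 kb away, and *tio* ranged most widely, as given above.

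**Figure D4:**
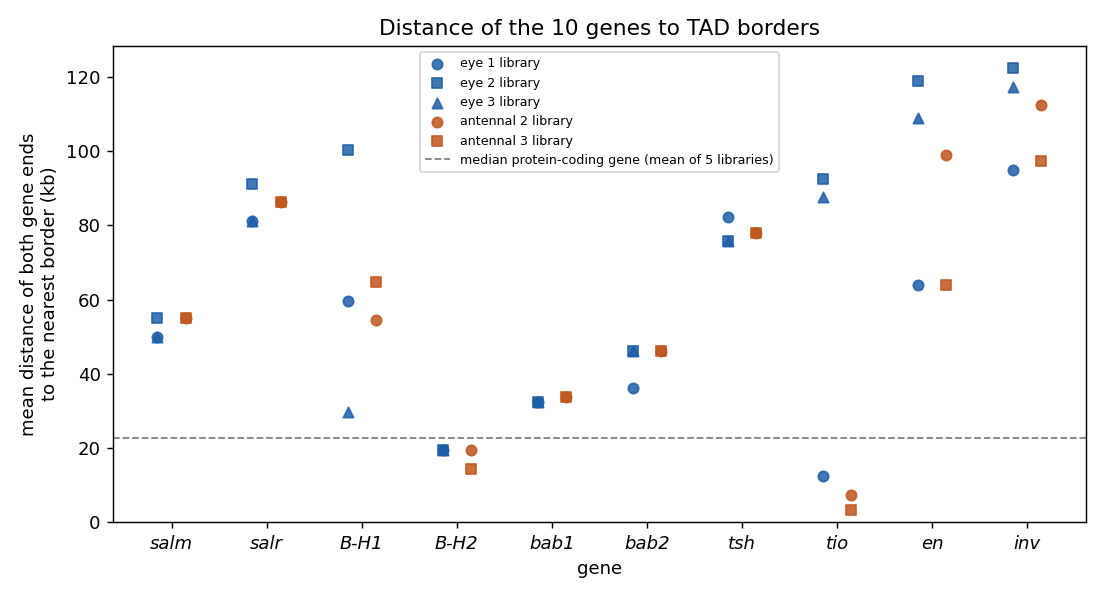
Mean distance in kb of both ends of each member gene to the nearest border (vertical axis) for the 10 genes (horizontal axis); each point is a library (eye disc blue, antennal disc orange), and the dashed line is the median protein-coding gene. *tio* has 2 eye disc libraries at 92.5 and 87.5 kb and the other 3 libraries at or below 12.5 kb.

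The domains of the 4 pairs that share a TAD held fewer protein-coding genes per 100 kb than the median TAD. They held 2.58 to 8.26, against a median TAD of 10 to 10.8 per library. The *en* and *inv* domain was at the upper end (7.14 to 8.26) and the others were at or below 5.29. None of the 4 gaps holds the midpoint of another protein-coding gene, so a domain with such a pair includes that stretch. The low density is therefore not a separate fact, and TADs of like width were not compared. The TAD of *tsh* held 4.35 to 5.45 per 100 kb. That of *tio* held 3.33 to 7.18 in the eye disc, and 12 and 3 in antennal disc libraries 2 and 3, where the border near *tio* left it on the gene-rich right side in library 2 and on the gene-poor left side in library 3.

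Among 26 other duplicated regulator pairs, whose median span of 41.3 kb is shorter than the 88.7 kb of the 5 pairs, 20 shared a TAD in all 5 libraries. The share of neighbouring protein-coding genes that did so was 83.0%, which this count does not exceed. That share is not matched for span and covers only pairs inside TADs in all 5 libraries, so it is not a like background. The count was not tested, and some of the 26 pairs have a gene in common, so the same TAD can enter it more than once. Of the 10 that span at least as far as *en* and *inv*, 8 shared a TAD in all 5 libraries. These 10 span 54.7 to 100.6 kb. The share of all gene pairs, with any number of genes between them, was 31.0% at the span of *en* and *inv*. It was 13.0% at the 86.7 kb of *salm* and *salr*, so neither share matches the 10 pairs in span. The Iroquois homeobox genes *caup* and *mirr*, spanning 100.6 kb, were the 1 pair parted in every library, as *tsh* and *tio* were. *gsb* and *gsb-n*, segment polarity genes of the Pax family, shared a TAD in the antennal libraries and lay beyond the last TAD of 2R in the eye libraries, which is not a parting. Named after their values were seen, *eyg* and *toe*, *ac* and *sc*, and *sna* and *wor* were apart only in eye disc library 1, and *gcm* and *gcm2* only in antennal disc library 3. By the width of the TAD at the pair's midpoint over the 5 libraries, the domain most like that of *bab1* and *bab2* was that of the homeobox genes *ems* and *E5* (mean absolute difference 13 kb). That of *mid* and *H15* was most like those of *salm* and *salr* (25 kb) and of *B-H1* and *B-H2* (33 kb), and for *en* and *inv* it was that of *kni* and *knrl* (29 kb).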

How the data were processed

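The deposited files list TADs as chromosome, start and end in base pairs of dm6, without scores or contacts. The submitters' processing notes name Bowtie2 2.3.4.2 and the build dm6; how TADs were called, and at what resolution, is not given in the sources used. All coordinates were multiples of 5000, so the bin was taken as 5 kb. Depth is unknown, so precision rests on 3 and 2 libraries. The labels describe 3 replicates of 125 discs per tissue and do not say whether they came from separate crosses or days, so p-values measure the spread between these libraries, which may be technical. The pooled lists are named as made from all replicates and so are not independent of the single ones.

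Both ends of every TAD counted as borders, and those of adjoining TADs up to 1 bin apart counted once. RefSeq gene positions of Release 6, to which dm6 corresponds, were used; that table gives no strand, exons or sequence. Tissues were compared by two-sided exact permutation over the 10 ways to assign the libraries to groups. The members and lists were chosen with earlier results of these data known. Genes named are the members, the protein-coding genes between them, the genes nearest to the ends of the pooled TADs, up to 5 comparison pairs parted in most libraries, and the comparison pair with the most similar TAD widths, which for *tsh* and *tio* is not reported here. Counting steps were tested on simulated data. Alternatives covered what counts as sharing a TAD, the stretch and borders counted, the gene position, the pooled lists, the replicate block and leaving out each library; those for single borders and for *tio* were added after seeing the data. Python 3.11.15, numpy 2.4.6, pandas 2.3.3 and matplotlib 3.10.9 were used.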

Additional observations from a re-analysis of the deposited data

How the results depend on the processing

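The difference between the discs in the number of pairs sharing a TAD, 0, was 1 when the whole of both genes had to lie in the same TAD (exact permutation p = 0.2), because the eye disc border inside *bab1* then counts. It was 0 under the other alternatives. The difference in borders inside the pairs' spans, 0, was 0.5 for only the stretch between the genes and 1 in the authors' pooled lists, which allow no test. The member border distance kept its direction throughout, from −1.72 kb without eye disc library 2 to −16.1 kb without eye disc library 1, with no p under 0.05. With the replicate block, limited to numbers 2 and 3, it was −16.1 kb (exact sign-flip p = 0.5, the smallest possible), and the differences in shared pairs and in borders stayed at 0. The labels do not say that a number marks a shared batch, and over 13842 protein-coding genes the differences between libraries 2 and 3 of the discs correlated at 0.0842. The width difference of the *B-H1* and *B-H2* TAD, −30.8 kb, ranged from −60 kb without eye disc library 3 to 12.5 kb without eye disc library 2, and that of *en* and *inv*, −13.3 kb, from −30 kb without eye disc library 1 to 1.67 kb without antennal disc library 3. The difference for *tio*, −58.8 kb, was −44.7 to −84.7 kb with a library left out. No comparison of 3 against 2 libraries can pass a threshold of 0.05, so these alternatives show the size of a value and not whether a call holds. The bin of 5 kb limits any border position, and without contacts or depth a border that was missed cannot be told apart from one that is absent.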
